A study of Homo sapiens with 40 samples.

Results

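The human mitochondrial chromosome carries 37 genes, and all of them were listed among the 60279 genes of the count tables. They comprise 2 rRNA genes, 13 protein-coding genes (called mRNA genes here) and 22 tRNA genes, and they were taken by their MT- symbols, without regard to their levels. Their reads were examined in single cells of T47D, a human luminal breast cancer line that carries no engineered change according to the labels. All cells are labelled as passage 10, without a statement of whether the protocols shared a culture, and were sorted as EpCAM and CD49f double-positive single cells. In the G&T protocol poly(A) RNA was separated from genomic DNA on beads and amplified by a SMART-seq2 type reaction. The Takara cells were processed with the SMART-Seq HT kit, and the NEB cells with the NEBNext Single Cell/Low Input kit, which also has its own library step. All 3 protocols prime reverse transcription with oligo-dT and switch templates at the other end. SMART-Seq3 cells were not analysed here. Of 40 deposited cells (13 G&T, 13 Takara, 14 NEB), 33 were used and 7 were left out by well: G&T C2 and F1, Takara C2 and F1, and NEB B2, F1 and F2. One of the study's quality limits for cells is the share of mitochondrial reads, so the kept cells were in part chosen on that total.

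The cells of a protocol were sequenced together and apart from the others, so what belongs to the protocol and what to its run cannot be told apart, and its 11 cells do not replicate it. No test was made; means, SD and ranges describe the cells of 1 run. Reads on genes ranged from 658154 to 1166633 among the G&T cells, from 818512 to 1287911 among Takara and from 624772 to 963816 among NEB. Of the 7 luminal epithelial markers listed, KRT8, KRT18, KRT19, GATA3 and ESR1 had reads in all 33 cells and EPCAM and FOXA1 in all but 1 NEB cell each. PTPRC, an immune marker, had 2 reads in 1 G&T cell, PECAM1, an endothelial marker, had 12 reads in 2 G&T cells, and VIM, a mesenchymal marker, had 181 reads in 9 cells.

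Mitochondrial DNA is transcribed from both strands into long precursors that cover nearly the whole circle. In these precursors tRNAs lie between most rRNA and mRNA sequences, and their excision releases the neighbouring RNAs. Most of the mature mRNAs, as well as both rRNAs, then receive A tails, long in mRNAs and short in rRNAs. The 13 mRNA genes encode subunits of respiratory complexes I, III, IV and V, and the rRNAs and tRNAs serve the translation of these subunits inside the organelle. In the annotation used here (GENCODE release 44 on GRCh38), 28 genes lie on the plus strand, with both rRNAs, 12 mRNAs and 14 tRNAs. The minus strand carries the other 9, which are MT-ND6 and 8 tRNAs.

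The genes abut or overlap, and a read counter that assigns a read pair to a single gene leaves out pairs that touch more than one. The sequences below, from the GRCh38 reference, show where this bears on the members. In the first pair of sequences the capitals mark the bases that both neighbours share, which are 46 bases of the complex V genes MT-ATP8 and MT-ATP6 and 7 bases of the complex I genes MT-ND4L and MT-ND4. In the sequence across MT-ND5 and MT-ND6 the capitals mark the 30 bases of the minus-strand gene MT-ND6 that lie nearest to MT-ND5, read on the plus strand.
MT-ATP8 and MT-ATP6, chrM:8507-8592, plus strand: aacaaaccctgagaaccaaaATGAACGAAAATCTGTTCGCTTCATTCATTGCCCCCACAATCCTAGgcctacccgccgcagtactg
MT-ND4L and MT-ND4, chrM:10740-10786, plus strand: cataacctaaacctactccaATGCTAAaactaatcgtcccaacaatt
MT-ND5 and MT-ND6, chrM:14119-14178, plus strand: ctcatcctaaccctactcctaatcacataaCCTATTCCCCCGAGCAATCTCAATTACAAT

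The next 3 sequences are the tRNA genes with most reads over the 33 cells, each in capitals over its whole annotated length and read 5′ to 3′ on its own strand. MT-TP, the proline tRNA gene, is shown with 30 bases before it and 12 after it in lower case. It is the last gene of the map and borders 1122 bases without an annotated gene, which hold the control region.
MT-TP with flanks, chrM:15944-16053, minus strand: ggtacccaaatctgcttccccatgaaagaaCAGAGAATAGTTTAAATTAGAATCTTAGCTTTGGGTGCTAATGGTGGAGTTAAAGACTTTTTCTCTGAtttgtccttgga
MT-TL1, the first of 2 leucine tRNA genes, chrM:3230-3304, plus strand: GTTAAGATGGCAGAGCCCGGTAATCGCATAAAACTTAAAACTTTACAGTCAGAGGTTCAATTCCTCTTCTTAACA
MT-TY, the tyrosine tRNA gene, chrM:5826-5891, minus strand: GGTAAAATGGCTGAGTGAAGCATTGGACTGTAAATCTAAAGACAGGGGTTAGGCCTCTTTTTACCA

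The mitochondrial genes together took 9.31% to 22% of the reads on genes in G&T cells, with a mean of 16.1% ± 4.14 (SD, n = 11 cells). In Takara cells the range was 7.91% to 13.4% (10.0% ± 1.61), and in NEB cells 7.90% to 10.7% (9.40% ± 1.04). The G&T range thus overlapped both others. The excess of G&T cells lay in the rRNA genes, since rRNA took 9.49% ± 3.30 of the reads on genes in G&T cells, 2.18% ± 0.450 in Takara cells and 0.405% ± 0.128 in NEB cells, whereas mRNA took 6.64% ± 1.87, 7.83% ± 1.25 and 8.99% ± 0.966. For the mRNA genes the ranges of all 3 protocols overlapped.

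The protocols differed in how the mitochondrial reads were divided between rRNA and mRNA genes. Within the mitochondrial reads of a G&T cell, rRNA genes took from 36.1% to 69.3%, with a median of 62.6%. Takara cells ran from 18.2% to 26.5% with a median of 22.4%, and NEB cells from 2.37% to 5.66% with a median of 4.31%. No cell of one protocol reached the range of another, and the means of 58.0%, 21.7% and 4.28% stood apart by more than the SD of either protocol in each pair (10.8, 2.37 and 1.13 percentage points). In the NEB cells nearly all mitochondrial reads, 95.6% pooled over cells, were therefore on mRNA genes. The tRNA genes took 0.0584% of the pooled mitochondrial reads with G&T, 0.0708% with Takara and 0.0669% with NEB.

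**Figure D1:**
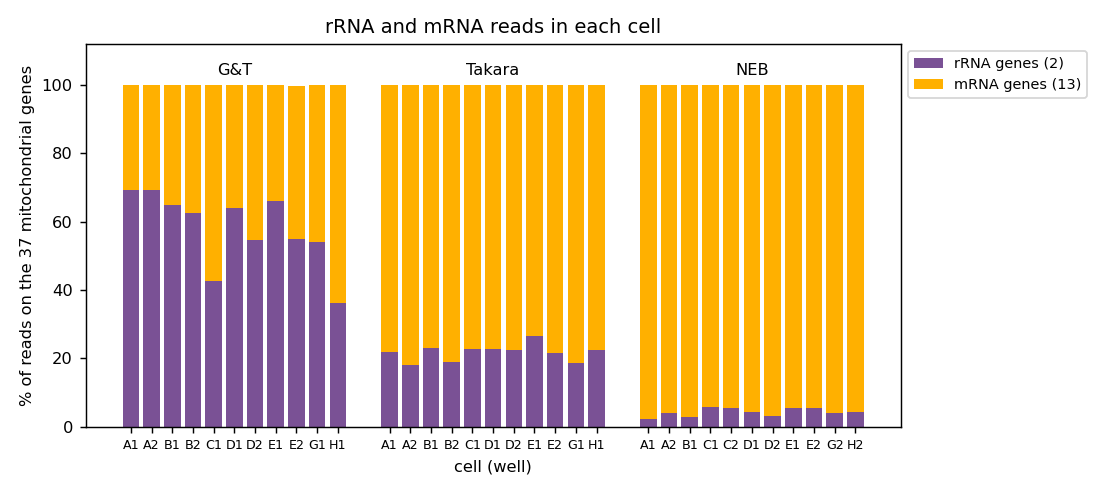
Share of the reads on the 37 mitochondrial genes, in percent, that fell on the 2 rRNA genes (lower bar) and the 13 mRNA genes (upper bar) in each of the 33 cells, named by well; the tRNA genes are too few reads to be seen. Bars of G&T cells show 36.1% to 69.3% rRNA, those of Takara cells 18.2% to 26.5% and those of NEB cells 2.37% to 5.66%.

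MT-RNR2 encodes the 16S rRNA of the large subunit of the mitochondrial ribosome (chrM, 1671 to 3229) and was the gene with most mitochondrial reads in G&T. Its level was 39312 to 121766 counts scaled to 1000000 reads on genes (CPM) in G&T cells, with a median of 89050. Takara cells had 15987 to 28700 CPM (median 19091) and NEB cells 1722 to 5479 CPM (median 3471). The 3 ranges were separate. Pooled over cells, MT-RNR2 stood at 76614 CPM in G&T, 20971 with Takara and 3829 in NEB, with 95% Poisson intervals of 76438 to 76790, 20888 to 21054 and 3786 to 3872, which cover counting error only, since reads without molecular identifiers are not independent molecules.

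MT-RNR1 encodes the 12S rRNA of the small ribosomal subunit (chrM, 648 to 1601). It ranged from 5586 to 30410 CPM in G&T cells (median 15946), from 417 to 1002 CPM in Takara cells (median 663) and from 90.3 to 424 CPM in NEB cells (median 185). Every G&T cell lay above every other cell, while the lowest Takara cell lay just below the highest NEB cell. As a share of mitochondrial reads even these last were separate, at 0.462% to 1.11% in Takara and 0.0957% to 0.431% in NEB cells.

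The rRNA genes also differed in their proportion to each other. Both lie on one precursor with only the valine tRNA gene MT-TV between them. Per kb of gene, pooled MT-RNR2 had 2.93 times the reads of MT-RNR1 with G&T, 17.3 times with Takara and 10.3 times with NEB. Within cells the log2 ratio was 1.68 ± 0.44 in G&T (1.19 to 2.69), 4.14 ± 0.39 in Takara (3.52 to 4.69) and 3.44 ± 0.84 in NEB (1.75 to 4.78). Thus G&T and Takara cells were separate, and the NEB range reached into both.

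All 13 mRNA genes had reads in each of the 33 cells. They are described as shares of the mRNA reads of a cell, which leaves the rRNA genes out of the denominator. Complex IV (cytochrome c oxidase, the terminal oxidase of the chain) and complex I (NADH dehydrogenase) took most of these reads. The 3 complex IV genes held 44.8% ± 4.96 in G&T cells, 55.4% ± 4.07 in Takara and 49.5% ± 3.04 in NEB, and the 7 complex I genes held 42.1% ± 5.05, 28.6% ± 4.98 and 38.2% ± 3.00. The ranges of the complex totals overlapped between all protocols, from 33.9% to 60.9% for complex IV and from 24.0% to 54.6% for complex I. Single genes within a complex stood further apart.

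Among the complex IV genes, MT-CO1, which encodes the catalytic subunit, and MT-CO2, which encodes the subunit that accepts electrons from cytochrome c, changed places. The MT-CO1 share was 8.02% to 31.8% in G&T cells (median 14.8%), 20.5% to 37.3% in Takara cells (33%) and 3.59% to 7.74% in those of NEB (5.41%). Every NEB cell lay below every cell of the other protocols. For MT-CO2 the shares were 11.1% to 27.6% in G&T (median 18.3%), 12.6% to 20.3% in Takara (14.2%) and 35.7% to 45.4% in NEB cells (40.8%), so that every NEB cell lay above every other cell. MT-CO3, the third subunit, followed MT-CO1 in this respect, with 5.23% to 11.6% in G&T cells (median 9.05%), 6.87% to 12% in Takara cells (9.72%) and 1.56% to 3.11% in those of NEB (2.26%).

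Complex I genes fell on both sides. MT-ND4 took 14.9% to 26.1% of the mRNA reads in G&T cells (median 18%), 12.3% to 20.3% in Takara (12.9%) and 25.0% to 32.7% in NEB (29.3%). MT-ND4L, which lies directly before MT-ND4 and shares the 7 capital bases with it, took 1.55% to 4.35% (2.52%), 0.842% to 1.60% (1.04%) and 3.27% to 4.39% (3.64%). For both genes each NEB cell lay above each Takara cell, and the G&T range reached into both others, into that of Takara by a narrow margin in MT-ND4L.

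The other complex I genes had their lowest shares in NEB cells. MT-ND3 took 1.09% to 4.57% in G&T cells (median 1.91%), 0.560% to 1.37% in Takara cells (0.902%) and 0.0856% to 0.185% in those of NEB (0.118%). MT-ND5, the longest of the 13 genes, took 4.08% to 8.61% (5.05%), 3.06% to 6.67% (4.64%) and 0.688% to 1.93% (1.22%). In both genes the NEB range was separate from the others, while G&T and Takara overlapped. MT-ND1 took 3.49% to 7.24% (4.62%) in G&T, 1.42% to 3.52% (1.87%) with Takara and 0.411% to 1.62% (0.730%) in NEB. For MT-ND2 the shares were 4.36% to 10.3% (5.93%), 3.14% to 5.36% (4.22%) and 1.60% to 4.18% (2.58%). In these 2 genes G&T and NEB were separate and Takara lay between them, overlapping NEB and, by a narrow margin in MT-ND1, G&T.

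For the single complex III gene and the complex V genes the ranges of all protocols overlapped. MT-CYB, cytochrome b, took 3.73% to 8.66% in G&T cells (median 5.65%), 7.49% to 10.9% in Takara cells (8.23%) and 4.21% to 8.25% in those of NEB (6.25%). MT-ATP6, a subunit of the proton channel of ATP synthase, took 3.15% to 10.4% (7.13%), 3.86% to 8.55% (7.20%) and 4.34% to 7.81% (6.01%). MT-ATP8, a small subunit of the same enzyme, took 0.0884% to 0.487% (0.215%), 0.231% to 0.588% (0.418%) and 0.310% to 0.662% (0.426%). The means still differed by more than both SD for MT-CYB between Takara (8.68%) and both G&T (5.97%) and NEB (6.06%). They did so for MT-ATP8 between G&T (0.238%) and both Takara (0.405%) and NEB (0.413%), and for MT-ATP6 in no pair. Only 161 of the 207 bases of MT-ATP8 are not shared with MT-ATP6, and reads that touch both genes are not in these counts.

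**Figure D2:**
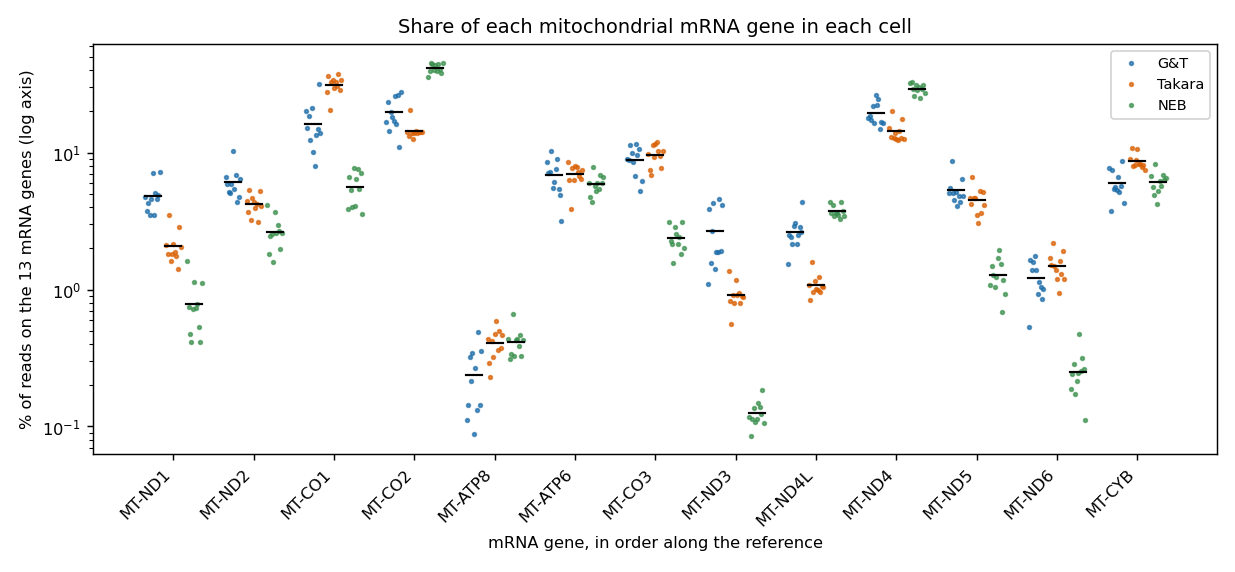
Share of each mRNA gene in the reads on the 13 mRNA genes, in percent on a log axis, for each cell (points) of G&T, Takara and NEB, with the mean over 11 cells as a bar and genes in order along the reference. The NEB cells lie above all others for MT-CO2 (35.7% to 45.4%) and below all others for MT-CO1, MT-CO3, MT-ND3, MT-ND5 and MT-ND6.

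Counted over the 13 mRNA shares, the ranges of G&T and Takara cells were separate for 0 genes, those of G&T and NEB for 8 and those of Takara and NEB for 8. The means differed by more than both SD for 8, 11 and 11 genes in these pairs. Shares of a total are not independent of one another, and there is no wider set of genes against which these counts can be read. The 3 most abundant mRNAs held 55.6% of the pooled mRNA reads in G&T (MT-CO2, MT-ND4 and MT-CO1) and 60.1% in Takara (the same genes, led by MT-CO1). In NEB they held 77.0%, with MT-CYB in place of MT-CO1.

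The spread between cells was larger than counting error for every one of these shares. For MT-CO1 in G&T cells the coefficient of variation was 40.1%, where counting error alone gives 1.11%. MT-CO2 in NEB cells was among the steadiest, at 7.62% against 0.474%. MT-ATP8, with 31 to 411 reads a cell in G&T, had 53.8% against 11.1%, and MT-ND3, with 61 to 102 reads a cell in NEB, had 21.2% against 11.3%.

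Levels of different genes can be compared only per length. Per kb of gene, pooled MT-CO2 was the highest mRNA in G&T and NEB, at 19616 and 54562 CPM per kb. In Takara MT-CO2 (16327 CPM per kb) and MT-CO1 (16047 CPM per kb) lay close together, and their order turned without the cell B1, at 16171 and 16766 CPM per kb. MT-CO1 was above MT-CO2 per kb in 6 of the 11 Takara cells. The lowest was MT-ATP8 in G&T and Takara, at 857 and 1544 CPM per kb, and MT-ND3 in NEB, at 319 CPM per kb. From the highest to the lowest mRNA gene the level fell 22.9-fold in G&T, 10.6-fold with Takara and 171-fold in NEB, although 12 of the 13 genes share a precursor. In G&T and Takara the fall ended at MT-ATP8, which shares 46 bases with MT-ATP6. Reads that touch both genes are not counted, so it is not a difference in RNA levels alone. The same limit holds in NEB, where MT-ND3 has 346 bases and abuts tRNA genes on both sides without a free base. The order of the 13 genes per kb was nonetheless alike, with a Spearman correlation across genes of 0.88 between G&T and Takara, 0.73 between G&T and NEB and 0.72 between Takara and NEB. These points share their gene lengths and annotation, and genes are not independent replicates.

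Position along the precursor was not related to level in a simple way. Over the 12 plus-strand mRNA genes the Spearman correlation of reads per kb with gene order was -0.03 with G&T, -0.03 with Takara and 0.12 with NEB. Without the 3 genes under 500 bases it was -0.05, 0.05 and 0.18 over 9 genes. Neighbours on the map often differed by large steps, as in NEB cells between MT-CO3 (2692 CPM per kb), MT-ND3 (319 CPM per kb) and MT-ND4L (11250 CPM per kb), which are separated only by tRNA genes. Pairs that also touch one of these tRNA genes are not counted, so the steps are not of RNA levels alone.

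**Figure D3:**
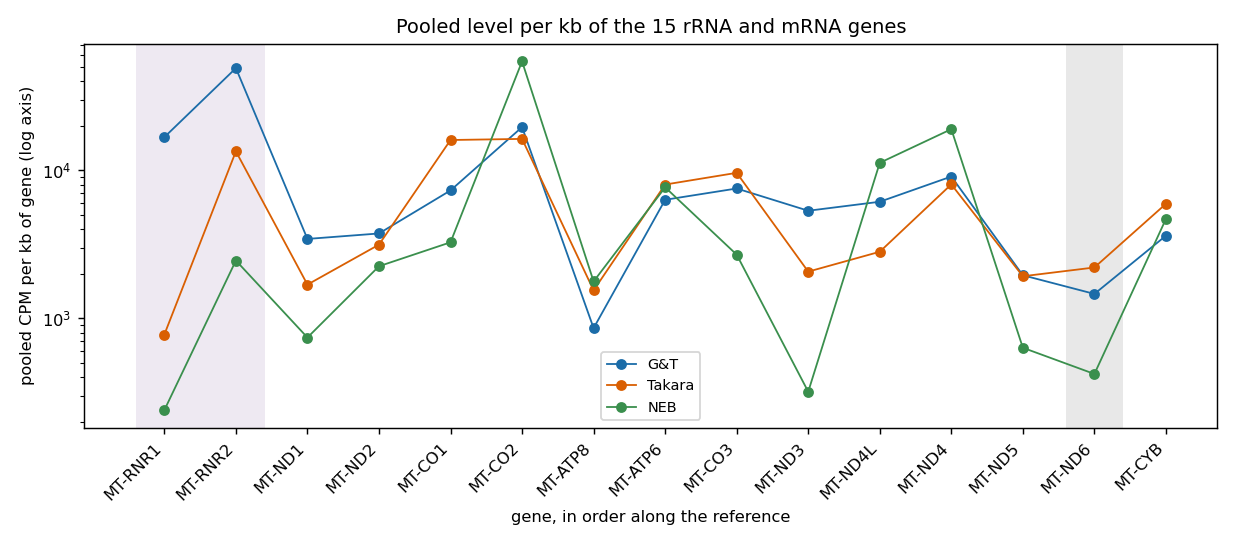
Pooled level of the 2 rRNA genes (shaded left) and 13 mRNA genes, in CPM per kb of gene on a log axis, in order along the reference, for G&T, Takara and NEB; MT-ND6, on the minus strand, is shaded grey, and lines only join points of a protocol. The lines cross repeatedly: NEB is the highest at MT-CO2, MT-ND4L and MT-ND4 and the lowest at MT-RNR1, MT-RNR2, MT-CO1 and MT-ND3.

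MT-ND6, a complex I subunit, is the only mRNA gene of the minus strand (chrM, 14149 to 14673). Its level was 359 to 1091 CPM in G&T cells (median 823), 760 to 1628 CPM in Takara cells (1122) and 111 to 378 CPM in those of NEB (217). The highest NEB cell thus lay just above the lowest G&T cell, and the Takara cells lay above all NEB cells. As a share of mRNA reads MT-ND6 took 0.530% to 1.77%, 0.947% to 2.20% and 0.112% to 0.471%, and on this scale the NEB range was separate from both others.

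Against the mean of the 12 other mRNAs per kb, MT-ND6 was low in all 33 cells. The log2 ratio within cells was -2.09 ± 0.49 in G&T (-3.11 to -1.49), -1.57 ± 0.35 in Takara (-2.23 to -0.99) and -4.49 ± 0.54 in NEB (-5.61 to -3.47). NEB cells were separate from both others. The highest genes weigh most in this mean, and MT-ND6 was not the lowest mRNA gene per kb in any protocol. Pooled per kb it ranked 12 of 13 in G&T and 9 of 13 in Takara. In Takara the plus-strand genes MT-ND3, MT-ND5, MT-ND1 and MT-ATP8 were lower, and in NEB MT-ND3 was the lowest. All 9 minus-strand genes together held 0.516% of the pooled mitochondrial reads in G&T, 1.22% with Takara and 0.302% in NEB. The kits do not mark strand, so reads from MT-ND6 and from plus-strand RNA opposite to it cannot be told apart.

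Reads on tRNA genes were few: 2213 over the 33 cells, 885 with G&T, 829 with Takara and 499 with NEB. These genes are only 59 to 75 bases long, and most have few or no free bases beside them. Since pairs that touch more than 1 gene are not counted, low counts and zeros here do not measure tRNA levels. How many pairs were lost in this way was not tested. The number of tRNA genes with at least 1 read was 9.36 ± 3.07 in a G&T cell (6 to 16), 8.18 ± 1.72 in a Takara one (4 to 10) and 2.64 ± 0.924 in an NEB one (1 to 4). NEB cells had the fewest, with only their highest value reaching the lowest Takara value. With at least 5 reads asked for they fell to 3.45, 1.64 and 1.0. After each cell was thinned to the shallowest cell's 624772 reads on genes, they were 8.40, 6.29 and 2.45. Pooled over the cells of a protocol, 19 tRNA genes had a read in G&T, 15 with Takara and 5 in NEB.

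The tRNA reads were concentrated on MT-TP, whose sequence is printed above. MT-TP had 4 to 91 reads in each G&T cell (median 14), 33 to 98 in Takara cells (55) and 16 to 72 in those of NEB (42). It was the only tRNA gene with reads in all 33 cells, and the ranges of the 3 protocols overlapped. Its 356, 668 and 475 reads were 40.2% of the tRNA reads with G&T, 80.6% with Takara and 95.2% with NEB. Reads of MT-TP cannot be told apart from those of RNA of the other strand, nor from those of longer RNAs that run on into the 1122 bases beside it.

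The other tRNA genes with over 100 reads differed more between protocols. MT-TL1, which follows MT-RNR2 without a gap, had 134 reads in 10 G&T cells, 24 in 10 Takara cells and 4 in 3 NEB cells. MT-TY, beside MT-CO1 on the opposite strand, had 87 reads in 8 G&T cells, 54 in 11 Takara cells and 8 in 7 NEB cells. Of the G&T reads of MT-TY, 52 were in cell E2, and without it MT-TY fell from 9.16 to 4.10 CPM, below the 4.61 CPM of Takara. MT-TF, the phenylalanine tRNA gene at the head of the map, borders the same 1122 bases as MT-TP. It had 91 reads in 11 G&T cells, 11 in 6 Takara cells and none in NEB, where a count of 0 allows up to 3 reads, or 0.376 CPM. MT-TE, the glutamate tRNA gene between MT-ND6 and MT-CYB, had a like pattern, with 86, 13 and 0 reads, and is named after its values were seen. Without E2 the G&T reads were 88 for MT-TL1, 56 for MT-TF and 43 for MT-TE. In Takara MT-TF had 7 reads without G1, and in NEB MT-TL1 had 2 without D1. These cells, like Takara B1 above, were picked after their values were seen.

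Of the remaining 17 tRNA genes, 14 had 1 to 34 reads over all cells. MT-TC, the cysteine tRNA gene, was among the 5 with reads in NEB, with 6, 5 and 10 reads with G&T, Takara and NEB. MT-TA, MT-TN and MT-TK, for alanine, asparagine and lysine, had no read in any cell, which allows up to 0.316 CPM in G&T, 0.256 CPM with Takara and 0.376 CPM in NEB. The 8 minus-strand tRNA genes took 61.8% of the tRNA reads with G&T, 89.3% with Takara and 98.8% with NEB, mostly through MT-TP.

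3 G&T cells stood apart in their tRNA reads. D2, E2 and H1 held 657 of the 885 tRNA reads, or 74.2%. Without them, a choice made after the data were seen, the 8 other G&T cells held 228 tRNA reads on 15 tRNA genes, 0.0218% of their mitochondrial reads, with 7.88 tRNA genes a cell. MT-TP then had 102 reads, MT-TL1 31, MT-TF 29, MT-TE 18 and MT-TY 12, the last at 1.87 CPM and so below Takara. ERCC spike-ins took 2.16% to 2.75% of the reads on genes and spike-ins in the 3 cells and 1.37% to 2.11% in the 8 others, and reads outside annotated genes took 5.46% to 8.64% and 8.82% to 23.2% of all reads. The part of these properties in the tRNA reads was not tested.

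**Figure D4:**
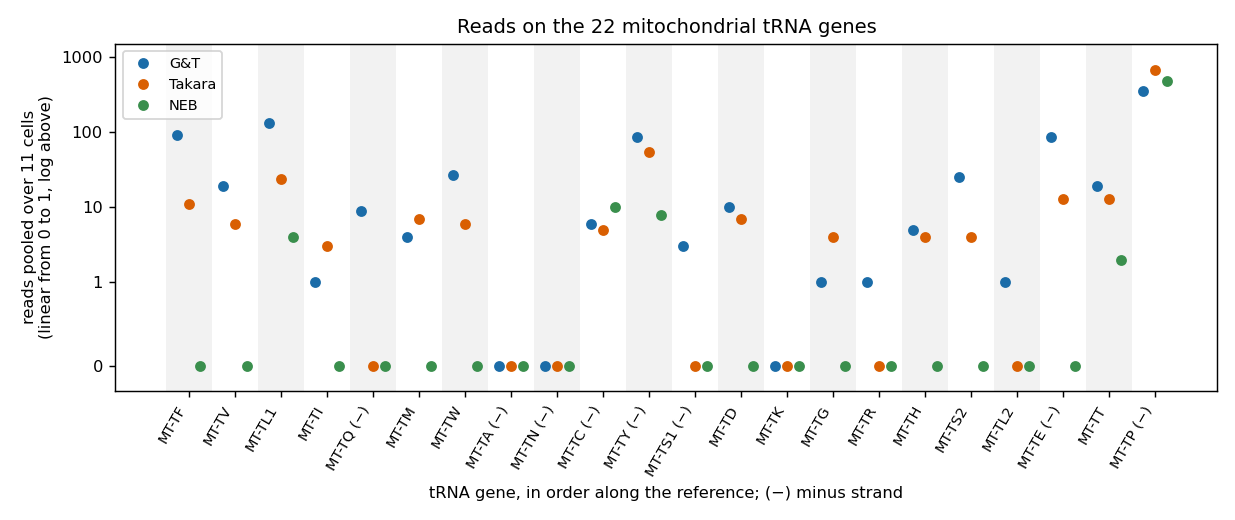
Reads on each of the 22 tRNA genes pooled over the 11 cells of G&T, Takara and NEB, in order along the reference (minus-strand genes marked), on an axis that is linear from 0 to 1 and logarithmic above. MT-TP is the highest gene in each protocol with 356, 668 and 475 reads, and 17 genes lie at 0 in NEB.

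Ratios between members within a cell do not depend on the depth of the cell or on its other genes. Over the 13 ratios computed, the ranges of G&T and Takara cells were separate for 3 (1 of them, MT-ND4L over MT-ND4, by less than counting error), those of G&T and NEB for 7 and those of Takara and NEB for 8. The differences of the means were larger than both SD for 8, 11 and 12 ratios. Like the shares, these ratios have members in common and are not independent.

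The log2 ratio of rRNA to mRNA reads was 0.48 ± 0.65 in G&T cells (-0.82 to 1.18) and above 0 in 9 of 11 cells. It was -1.86 ± 0.20 in Takara cells (-2.17 to -1.47) and -4.53 ± 0.43 in NEB cells (-5.36 to -4.06), and the 3 ranges were separate. The SD over G&T cells was 77.0 times what counting error alone gives. The 2 G&T cells below 0 were C1 and H1.

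Neighbouring or related mRNAs gave ratios that set NEB apart. MT-CO2 over MT-CO1, per kb, was 1.49 ± 0.86 on the log2 scale in G&T cells (-0.35 to 2.85), 0.06 ± 0.40 in Takara (-0.28 to 1.16) and 4.11 ± 0.45 in NEB (3.56 to 4.83). MT-ND5 over MT-ND4, whose genes are parted by 3 tRNA genes, was -2.27 ± 0.43, -2.07 ± 0.17 and -4.97 ± 0.43. MT-ATP6 over MT-CO3, which adjoin, was -0.20 ± 0.37, -0.27 ± 0.19 and 1.53 ± 0.47. In each of these 3 ratios G&T and Takara overlapped and NEB was separate from both.

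Other ratios followed a different order. MT-ND4L over MT-ND4 was -0.68 ± 0.49 in G&T cells, -1.51 ± 0.15 in Takara and -0.75 ± 0.13 in NEB, and here Takara was separate from NEB, while G&T and NEB overlapped. G&T and Takara did not overlap either, but the lowest G&T cell (A1) and the highest Takara cell (E1) were both at -1.33, closer than their counting SD of 0.0517 and 0.0457. MT-ND3 over MT-CO3 was -0.68 ± 0.83, -2.23 ± 0.27 and -3.05 ± 0.40, with G&T and NEB separate. MT-ND1 over MT-ND2 was -0.20 ± 0.29, -0.91 ± 0.20 and -1.70 ± 0.52, again with G&T and NEB separate and Takara between. MT-CYB over MT-CO1 was -0.96 ± 0.50, -1.41 ± 0.28 and 0.58 ± 0.59, with Takara and NEB separate.

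MT-ATP8 over MT-ATP6 varied most among G&T cells, from -4.54 to -1.43 (-3.26 ± 1.09), and overlapped between all protocols. In Takara it was -2.40 ± 0.23 and in NEB -2.13 ± 0.20. With the length of each gene counted only over bases it shares with no other gene, the pooled ratio rose from -2.88 to -2.62 in G&T, from -2.38 to -2.12 with Takara and from -2.11 to -1.86 in NEB, and the order was as before. The remaining ratios, MT-CO3 over MT-CO1 and MT-ND6 over MT-CYB, averaged 0.16, -0.73 and -0.25, and -1.22, -1.44 and -3.53, with G&T, Takara and NEB.

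**Figure D5:**
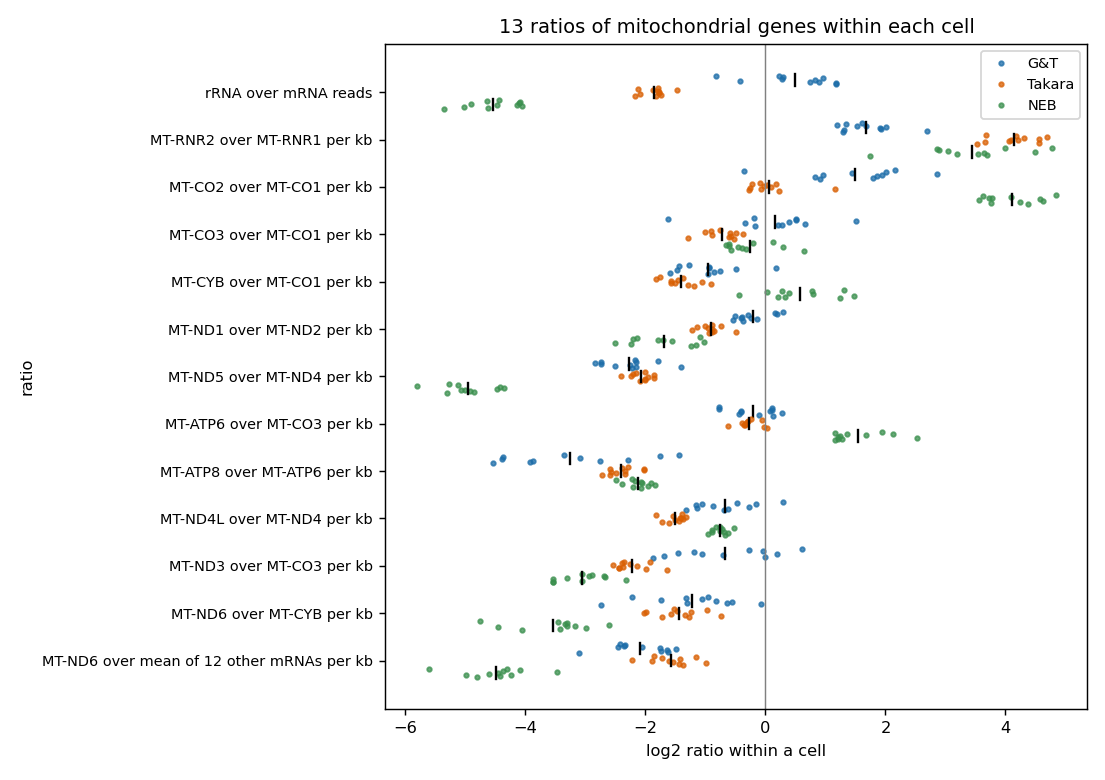
The 13 log2 ratios within each cell (points, 11 cells per protocol) with the mean as a black bar; ratios of single genes are per kb. For rRNA over mRNA reads the 3 protocols are separate around 0.48, -1.86 and -4.53, and for MT-CO2 over MT-CO1 NEB lies alone around 4.11.

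Across the 11 cells of a protocol, rRNA and mRNA levels in CPM were correlated with Pearson's r of 0.22 (Spearman's rho 0.36) with G&T, 0.72 (0.78) with Takara and 0.52 (0.45) with NEB. For MT-ND6 against the summed level of the 12 other mRNAs, r was 0.42 (0.48), 0.28 (0.30) and -0.22 (-0.07). Without the 2 cells farthest from the median of the x axis, r was -0.11, 0.57 and 0.69 for the first relation and 0.23, 0.37 and -0.38 for the second. Each correlation rests on 11 cells of 1 run whose CPM values share their denominators, and is given as a description.

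In CPM, the members were set against all 13102 genes with a mean of at least 1 CPM over the 33 cells. All 15 rRNA and mRNA genes and 7 tRNA genes were in this set and the other 15 tRNA genes were not. The tRNA genes passed partly through the protocol in which they were high, so the counts here are over the 15 rRNA and mRNA genes. A difference was counted where the pooled log2 ratio of CPM plus 1 was past 2-fold and, separately, where the ranges over cells did not overlap. The 15 genes stood at 110 to 76614 CPM pooled and had reads in every cell, whereas the set starts at 1 CPM. A gene with a count of 0 in cells of both protocols cannot have separate ranges. The shares of separate ranges are thus not matched for level, and no matched share was computed.

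From G&T to Takara, 5 of the 15 genes (33.3%) were over 2-fold higher in G&T, against 21.0% of all genes, and 1 (6.67%) was over 2-fold higher in Takara, against 17.4%. The 5 were MT-RNR1 (21.6-fold), MT-RNR2 (3.65-fold), MT-ND3 (2.58-fold), MT-ND4L (2.18-fold) and MT-ND1 (2.04-fold), and the 1 was MT-CO1 (2.19-fold). Ranges were separate for MT-RNR1 and MT-RNR2 only, or 13.3%, against 0.748% of all genes, and for none in the other direction, against 1.41%. The median log2 ratio of the 15 genes was 0.18 and that of all genes 0.04. MT-ND1 lay below 2-fold (log2 ratio 0.88 to 1.00) without any 1 of G&T D1, E2, G1 or H1 or of Takara B2 or C1. Without G&T cell H1 the 5 became 3, since MT-ND4L (0.94) was lost too, and without D2, E2 and H1 they became 2, the rRNA genes. Relative to the 13 mRNAs the split of 5 against 1 became 5 against 0, with MT-CO1 at a log2 ratio of -0.91. MT-CO1 was joined by MT-ATP8 without G&T cell E2 alone and without all 3 cells.

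From G&T to NEB, 8 of the 15 genes (53.3%) were over 2-fold higher in G&T, against 44.4% of all genes, and 3 (20%) were over 2-fold higher in NEB, against 20.2%. Both shares were near those of all genes. MT-RNR1 (69.8-fold), MT-RNR2 (20-fold) and MT-ND3 (16.6-fold) were the furthest towards G&T, along with MT-ND1, MT-CO1, MT-CO3, MT-ND5 and MT-ND6. MT-CO2 (2.78-fold), MT-ND4 and MT-ATP8 lay towards NEB. Ranges were separate for 4 genes higher in G&T (26.7%, against 3.74% of all genes), which were both rRNA genes, MT-ND3 and MT-ND5, and for 2 genes higher in NEB (13.3%, against 1.16%), MT-CO2 and MT-ND4. The median log2 ratio was 1.17 for the 15 genes and 0.67 for all genes. The split of 8 against 3 became 8 against 1 with ERCC reads in the denominator or with all deposited cells, 9 against 1 relative to the 13 mRNAs, and 7 against 4 with DESeq2 size factors. Towards NEB, MT-CO2 alone was past 2-fold without G&T cell A2, and MT-ND4L joined the 3 without H1 (log2 ratio -1.05). MT-ATP8 fell short without any 1 of G&T A1, A2, D1 or E1 or NEB C1 (-0.97 to -0.94), and MT-CO1 fell short towards G&T without G1 (0.92).

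From Takara to NEB, 8 of the 15 genes (53.3%) were over 2-fold higher in Takara, against 41.7% of all genes, and 3 (20%) were over 2-fold higher in NEB, against 23.1%. The 8 were the same genes as between G&T and NEB, a comparison that shares the NEB cells. MT-ND3 (6.44-fold), MT-RNR2 (5.48-fold), MT-ND6 (5.23-fold), MT-CO1 (4.92-fold) and MT-RNR1 (3.24-fold) were among them. The 3 higher in NEB were MT-ND4L (3.99-fold), MT-CO2 (3.34-fold) and MT-ND4. Ranges were separate for 6 genes higher in Takara (40.0%, against 8.69% of all genes), which were MT-RNR2, MT-CO1, MT-CO3, MT-ND3, MT-ND5 and MT-ND6, and for the 3 higher in NEB (20%, against 1.66%). The median log2 ratio was 1.19 for the 15 genes and 0.50 for all genes.

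The nuclear genes that transcribe, process and turn over mitochondrial RNA were read beside the members, as a list of 35 genes that all passed the same filter. Of these, 1 (2.86%) was over 2-fold higher in G&T than in Takara (LRPPRC, which binds mitochondrial mRNAs, at 233 and 105 CPM pooled) and 5 (14.3%) were higher in Takara. Between G&T and NEB 11 (31.4%) were higher in G&T and 10 (28.6%) in NEB, and between Takara and NEB 11 (31.4%) were higher in Takara and 9 (25.7%) in NEB. The shares of all genes in these 3 pairs were 21.0% and 17.4%, 44.4% and 20.2%, and 41.7% and 23.1%. The median log2 ratio was -0.37 between G&T and Takara, -0.38 between G&T and NEB, and -0.25 between Takara and NEB (first over second), each below that of all genes.

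The 3 genes of this list with most reads were SLIRP, the partner of LRPPRC, at 663, 508 and 402 CPM with G&T, Takara and NEB, SSBP1, which binds single-stranded mitochondrial DNA, at 264, 272 and 345 CPM, and HSD17B10, a subunit of the mitochondrial RNase P, at 251, 329 and 103 CPM. Single cells varied widely, with SLIRP from 201 to 1668 CPM among G&T cells. MTPAP, the mitochondrial poly(A) polymerase, is named after its values were seen. It had 28.3 CPM pooled in G&T, 27.5 CPM with Takara and 534 CPM in NEB, where the 11 cells held 218 to 1125 CPM, above all cells of the other protocols (0 to 59.0 and 14 to 64.0 CPM).

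Near-identical copies of mitochondrial genes in the nuclear genome can share reads with the members. Of 23 such copies listed, 10 were matched in the tables by symbol. The other 13, MTRNR2L1 to MTRNR2L13, which are named after MT-RNR2, were not matched and not analysed here. Reads that MT-RNR2 may share with copies were thus not assessed. The 10 held 0.595 reads per 100 mitochondrial reads with G&T, 0.947 with Takara and 1.27 with NEB. Most of these lay on MTATP6P1, a copy that includes MT-ATP6. For every 100 reads counted on MT-ATP6 it had 14.3 to 25.5 reads in G&T cells (19.5 pooled), 14.4 to 17.5 in Takara cells (16.1) and 20.6 to 23.8 in those of NEB (21.9). Reads that fit both equally well are in neither count, and how many MT-ATP6 lost in this way was not tested. MTCO1P12 held 0.532, 0.132 and 0.294 reads per 100 on MT-CO1, and MTND2P28 held 0.936, 0.927 and 0.878 per 100 on MT-ND2.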

How the data were processed

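Reads of the single-cell cDNA libraries were paired-end on a MiSeq. The authors trimmed with Trim Galore and mapped to GRCh38 by STAR; for each protocol they deposited a table of raw counts per gene and cell. The annotation release and the strand column taken are not given in the sources used here. STAR counts no read that maps to several places or touches more than 1 gene. CPM are over reads on genes, with ERCC spike-ins left out. Pooled ratios used CPM plus 1, and 95% Poisson intervals are exact. Coordinates and lengths came from GENCODE release 44, which may not be the authors' release and matched 56104 of 60279 genes by identifier. The members and gene lists were chosen with earlier results of these data known. Named were all rRNA and mRNA genes, tRNA genes with at least 100 reads and the 3 nuclear genes with most reads. Software was Python 3.11.15, numpy 2.4.6, pandas 2.3.3, scipy 1.17.1, matplotlib 3.10.9, R 4.3.3, edgeR 4.0.16 and DESeq2 1.42.0, the last 2 for size factors only. The pooled log2 ratios and the within-cell ratios per kb were tested on simulated Poisson counts, which hold no spread between cells beyond counting error. The other steps were not tested in this way. Alternatives covered the cells, detection, depth, scaling, filter, pseudocount and gene length.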

Additional observations from a re-analysis of the deposited data

Results flagged for a closer look

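The 7 wells that were left out also held mitochondrial reads, above the limit that a count of 0 allows, and they are listed because the comparisons of the 33 kept cells did not use them; only the recomputation with all deposited cells did. G&T C2 had 255628 mitochondrial reads, 36.2% of its reads on genes, with 48.9% of them on rRNA genes and 631 on tRNA genes, more than any kept cell had. G&T F1 had 20.6% with 53.8% on rRNA genes. Takara C2 had 1.00% (154 reads) and Takara F1 0.363% (29 reads), where a count of 0 allows up to 0.0196% and 0.0375%. These wells had only 15325 and 7990 reads on genes. rRNA genes took 39.6% and 27.6% of their few mitochondrial reads, outside the 18.2% to 26.5% of the kept Takara cells. NEB B2 had 8.11% with 15.2% of it on rRNA genes, outside the 2.37% to 5.66% of the 11 kept NEB cells, and MT-CO1 took 2.16% of its mRNA reads. NEB F1 had 7.88% (112 reads, limit 0.211%) of only 1421 reads on genes, and NEB F2 7.21% with 3.49% on rRNA genes. Of the reads on genes and spike-ins, ERCC took 91.3% in Takara C2, 96.7% in Takara F1, 99.7% in NEB F1 and 28.4% in NEB B2. In G&T C2, G&T F1 and NEB F2 it took 6.94%, 2.25% and 5.95%.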

How the results depend on the processing

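Of 2921 values recomputed for 150 results, 2865 kept their side of 2-fold, their size within the spread between cells or, for counts of genes, a like count. Most of the recomputed values only left out 1 cell at a time. Dropping the filter could not change the 15 rRNA and mRNA genes, and the smaller pseudocount could hardly do so. The total is therefore no measure of robustness. No log2 ratio past 2-fold, or past the spread between cells, reversed. A change of sign in a smaller log2 ratio was not counted as a reversal. No paired analysis was possible because the well names that protocols share carry no pairing and no test was made. The number of tRNA genes per cell, 9.36, 8.18 and 2.64 in G&T, Takara and NEB, moved to 3.45, 1.64 and 1.0 with at least 5 reads, and to 6.29 in Takara with every cell thinned to the same number of reads on genes. Relative to the 13 mRNAs, 0 of the 15 rRNA and mRNA genes were past 2-fold towards Takara from G&T (1 in the comparison as reported), 1 towards NEB from G&T (3), and ranges were separate for 9 genes higher in G&T than NEB (4) and 1 higher in NEB than G&T (2). With all deposited cells 1 gene was past 2-fold towards NEB from G&T, and ranges were separate for 0 genes there and for 0 genes higher in Takara than NEB (6). This setting adds the 7 wells left out. Among them are Takara C2 and F1, with mitochondrial shares of 1.00% and 0.363%, below every kept cell. With ERCC reads in the denominator 1 gene was past 2-fold towards NEB from G&T. In the 8 G&T cells with fewer tRNA reads, chosen after the data were seen, 2 genes were past 2-fold towards G&T and 2 towards Takara, and ranges were separate for 4 genes higher in NEB than G&T. Leaving out 1 cell at a time, genes past 2-fold ranged from 3 to 5 towards G&T and 1 to 2 towards Takara in that pair, and from 1 to 4 towards NEB from G&T. Apart from fewer cells, added wells or another denominator, the cause was not tested. TMM and DESeq2 factors shifted all log2 ratios by -0.06 and -0.11 for G&T over Takara, -0.10 and -0.24 for G&T over NEB and -0.04 and -0.13 for Takara over NEB. MT-ND1 in G&T over Takara was then 0.96 and 0.92, below 2-fold. The tRNA genes rest on 2213 reads in all, whereas each rRNA and mRNA gene had at least 31 reads in every cell.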
